A study of Mus musculus with 8 samples.

Results

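The 10 genes described here regulate how many mitochondria a cell builds and how the mitochondrial genome is kept and read. They are Ppargc1a, Ppargc1b, Pprc1, Nrf1, Gabpa, Esrra, Tfam, Tfb2m, Polrmt and Polg. They were chosen by name, each through the Ensembl identifier that carries its symbol, and the rule sets no threshold on a measured value. Each of the 10 matched 1 of the 32726 genes in the count table, and all 10 were among the 16272 genes with enough counts to be tested.

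Most mitochondrial proteins are encoded in the nucleus, while a small circular genome inside the organelle (mtDNA) encodes core subunits of the respiratory chain together with its own ribosomal and transfer RNAs. The PGC-1 coactivators (Ppargc1a, Ppargc1b and Pprc1) carry no DNA-binding specificity of their own and act by docking on transcription factors such as NRF1, the ETS-family factor GABP and the nuclear receptor ERRalpha, which switch on nuclear genes for respiration and for mtDNA upkeep. Among those genes are TFAM, which packages mtDNA and bends its promoters, TFB2M and the polymerase POLRMT, which start transcription there, and POLG, the catalytic subunit of the polymerase that copies mtDNA.

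The samples were neurons cultured from mice that lacked the kinase Nuak1 in every cell (KO, 4 libraries) and from wild-type mice (WT, 4 libraries), all on a C57BL/6JRj background, taken as E15.5 embryos and all grown for 5 days in vitro without serum or drug treatment. NUAK1 is a kinase of the AMPK-related family that acts in axon branching and in metabolism, and the comparison asked which transcripts differ when it is missing. The deletion was constitutive, so the cells had developed without the kinase before they were plated. The labels give the tissue as cortex or hippocampus without saying which applied to which library, while the paper describes the cells as cortical neurons. The labels also do not tie single libraries to animals or cultures. The methods give 4 animals per condition for RNA sequencing. The p-values measure the spread between these libraries.

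Polyadenylated RNA was sequenced to between 31247078 and 67155004 counted reads per library (median 39224504). Levels are given as CPM, the count per 1000000 reads of a library's total. Nuak1 itself stood at 1.96 to 2.72 CPM in the KO libraries, against 51.6 to 82.6 CPM in the WT libraries, so every library matched its label. Genotypes were compared with edgeR, a count model, with 1 surrogate variable (a hidden factor estimated from the counts) as a covariate, and 8 of all tested genes passed an adjusted p of 0.05. On each of the lanes named in the labels, A and B, there were 2 libraries per genotype. The comparison could therefore be repeated within a lane. Fits within a lane had no surrogate variable, and lane A held KO1 and WT1. Standard errors (SE) on lane A were large for some members, at 0.87 for Polrmt, 0.97 for Ppargc1b and 1.15 for Esrra. A strain label (BJ for KO1 to KO3, BK for KO4, WT2 and WT4, BO for WT1, BQ for WT3) is left unexplained, and for BJ, BO and BQ it cannot be told apart from genotype. Summed CPM of neuronal markers was 5119 to 5891 in KO and 5224 to 5928 in WT, that of astrocyte markers 767 to 1599 and 827 to 1460, and that of microglial markers 3.11 to 42.2 and 3.94 to 18.2. In bulk RNA, fewer cells of one type and less RNA per cell cannot be told apart. Libraries KO1 and WT1 stood apart from the other 6, and the members are given with and without them where their values turn on this pair. The surrogate variable was -0.56 in KO1 and -0.62 in WT1, against 0.045 to 0.38 in the other 6. It therefore mainly separated this pair from the rest.

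The members are linked to one another through DNA sites, and the stretches below are shown because they hold the words that 2 of the members recognise. The windows searched ran from 250 bases before to 50 bases after a RefSeq start site (GRCm38.p6), and 9 of the 10 members had at least 1 window (10 windows, with 2 for Nrf1). On both strands they were searched for an NRF1 word (GCATGCGC), an ETS word that GABP can bind (CCGGAAG), a nuclear receptor word that ERRalpha can bind (AAGGTCA) and a cyclic AMP response word (TGACGTCA). None of these overlap each other's letters in the stretches printed. Capitals mark the match, which may lie on either strand, and each stretch is written 5′ to 3′ on the strand of its gene.

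Esrra, NRF1 word, chr19:6921824-6921853, minus strand: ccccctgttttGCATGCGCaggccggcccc
Tfb2m, NRF1 word, chr1:179546245-179546274, minus strand: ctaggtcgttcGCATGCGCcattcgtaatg
Polrmt, NRF1 word, chr10:79746696-79746725, minus strand: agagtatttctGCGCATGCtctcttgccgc
Polrmt, ETS word, chr10:79746607-79746635, minus strand: ccctaagagcgCTTCCGGcagtcgcagaa
Tfam, ETS word, chr10:71238074-71238102, minus strand: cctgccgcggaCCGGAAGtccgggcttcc
Gabpa, ETS word, chr16:84835020-84835048, plus strand: gagggtaagtgCTTCCGGgtccctcagct
Polg, ETS word, chr7:79466294-79466322, minus strand: gaggacctcacCCGGAAGtccctctgcac

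The NRF1 word was present in windows of 3 members and the ETS word in windows of 4, and Polrmt held both. Of all 32544 windows in the table, 2.73% held the NRF1 word and 8.91% the ETS word. The nuclear receptor word (4.71% of all windows) and the cyclic AMP response word (1.80%) were in the window of no member. Of the 7 stretches, 5 lie inside the RefSeq span of their gene, and whether they are exonic was not assigned here. A match describes letters and not binding, and no match says only that these letters are not in this window.

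Per kilobase of exon, the members covered a wide range of levels. Exon length here is the union of all annotated exons of a gene, which can far exceed a single transcript. For Nrf1 it was 10282 bases, against 3584 for the longest transcript. The order below was computed with this length and no other. Polg was highest, with a mean of 13.5 CPM per kb over the 8 libraries, and Ppargc1b lowest with 0.34 CPM per kb. Between them the mean level per kb ran from Gabpa (9.81) through Tfam (7.93), Pprc1 (6.53), Polrmt (4.001), Ppargc1a (3.53), Esrra (3.07) and Nrf1 (2.34) to Tfb2m (1.34). In this order, 3 steps separated neighbours whose library ranges per kb did not overlap, namely Polg above Gabpa, Nrf1 above Tfb2m and Tfb2m above Ppargc1b. The library ranges of all other neighbours overlapped. Ranges were compared over the libraries, and the order of members within single libraries was not compared.

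**Figure D1:**
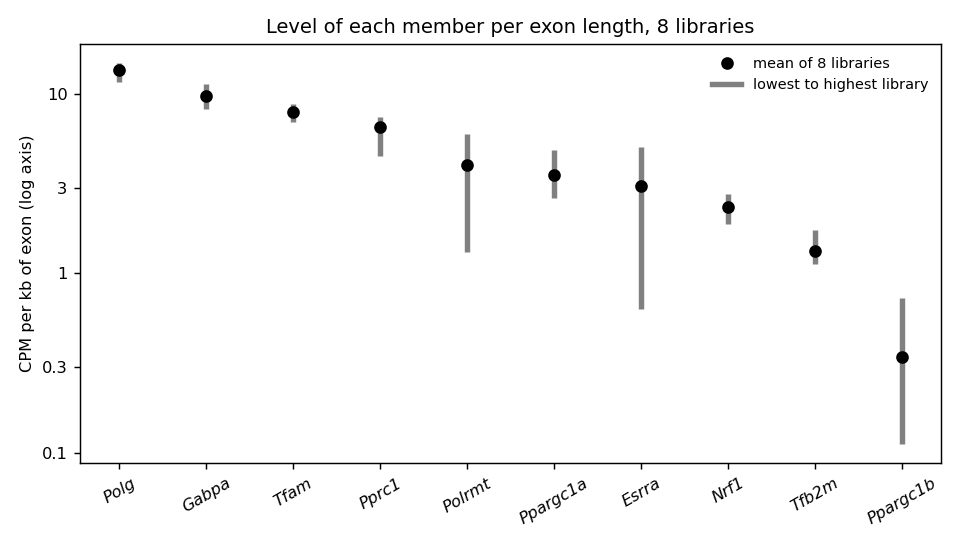
Level of the 10 members per kb of exon (CPM per kb, log axis) over the 8 libraries, with points for means and bars from the lowest to the highest library. Polg (11.7 to 14.9 CPM per kb) lay above all other members and Ppargc1b (0.11 to 0.73) below all but the lowest library of Esrra, with Esrra, Ppargc1b and Polrmt spanning the widest ranges on this log axis.

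Among the coactivators, Ppargc1a encodes PGC-1alpha, the member of the family that responds most to energy demand (GRCm38 chr5:51454249-52115853). In KO1 to KO4 it was at 27.7, 22.0, 21.6 and 17.5 CPM, and in WT1 to WT4 at 27.3, 19.1, 32.6 and 19.6 CPM. WT3 was the highest library and KO4 the lowest, and the genotypes overlapped across most of their range. Between genotypes, the log2 fold change of Ppargc1a (KO against WT) was -0.21 (SE 0.19, 95% interval -0.63 to 0.22, edgeR adjusted p = 0.723). Without WT3 the value was 0.026, so that library set its sign, and on lane B alone it was 0.11 against -0.43 on lane A.

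Forebrain interneurons are the cells best known for PGC-1alpha in the adult brain. Summed CPM of 9 interneuron markers was 351, 241, 326 and 215 in KO1 to KO4 and 269, 194, 319 and 210 in WT1 to WT4. The 3 libraries with the most Ppargc1a (WT3, KO1 and WT1) were among the 4 with the highest interneuron sums, and KO3 had a high sum with a middle level of Ppargc1a. The excess of Ppargc1a in KO1 and WT1 over the other 6 libraries also moved with GC content (0.37 on the log2 scale, 0.025 with GC content levelled). The part of interneuron content in the level of Ppargc1a was not tested. Pvalb, which marks a mature interneuron class and is a known PGC-1alpha target, was at 0 to 0.079 CPM and so near the floor of detection in these young cultures.

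Ppargc1b encodes PGC-1beta, a relative that maintains basal mitochondrial content (chr18:61291445-61400756). It was at 0.49, 1.07, 1.75 and 1.29 CPM in KO1 to KO4 and at 0.45, 1.55, 2.92 and 1.37 CPM in WT1 to WT4, from 14 counts in WT1 to 139 in WT3. KO1 and WT1 were the lowest libraries of their genotypes by a wide margin, and the groups overlapped. Its log2 fold change was -0.32 (SE 0.21, 95% interval -0.79 to 0.16, edgeR adjusted p = 0.617). The lanes gave -0.92 (A, SE 0.97) and -0.11 (B, SE 0.28). Without KO1 and WT1 it was -0.53 (SE 0.33), without WT3 -0.15 and without KO4 -0.19. Mir378a and 2 other RefSeq genes overlap it in position, and the sources do not say whether reads were counted by strand.

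Pprc1 encodes PRC, the family member induced when cells enter growth (chr19:46056526-46072909). It was at 38.3, 54.4, 54.7 and 55.8 CPM in KO1 to KO4 and at 34.0, 48.1, 51.5 and 55.9 CPM in WT1 to WT4. KO2, KO3 and KO4 lay within a narrow band while KO1 was far below them, and WT1 was likewise the lowest WT library. Between genotypes Pprc1 had a log2 fold change of 0.084 (SE 0.069, 95% interval -0.071 to 0.24, edgeR adjusted p = 0.691), and it ran from 0.049 without WT3 to 0.14 without WT4 when 1 library was left out. The lanes gave 0.13 (A) and 0.0066 (B), and GC correction gave 0.031.

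The balance within the family can be read without any scaling by depth, as the share of Ppargc1a in the summed counts of the 3 coactivators. That share was 41.6%, 28.4%, 27.7% and 23.5% in KO1 to KO4 and 44.3%, 27.8%, 37.4% and 25.5% in WT1 to WT4. Wilson 95% intervals of these shares were 2.58 to 4.43 percentage points wide, covering counting error only. KO1, WT1 and WT3 were high and the other 5 libraries close together. In KO1 and WT1 the log2 difference from the other 6 libraries was 0.37 for Ppargc1a and -0.54 for Pprc1. Once GC content was levelled within each library, these values were 0.025 and 0.094. The share itself was not computed with GC content levelled, and the part of GC content in it was not tested. The mean was 30.3% ± 7.86 in KO and 33.7% ± 8.72 in WT (SD, n = 4 each), a difference of -3.43 percentage points (two-sided exact permutation test, p = 0.6, where the smallest p this design allows is 0.0286). The difference was -3.70 points without KO1 and WT1, -7.21 points without KO1 and 0.078 points without WT1. Lane A alone gave -8.29 points and lane B alone 1.42 points. Counted against Ppargc1b alone, Ppargc1a made up 91.8% to 98.4% of the reads of the pair.

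**Figure D2:**
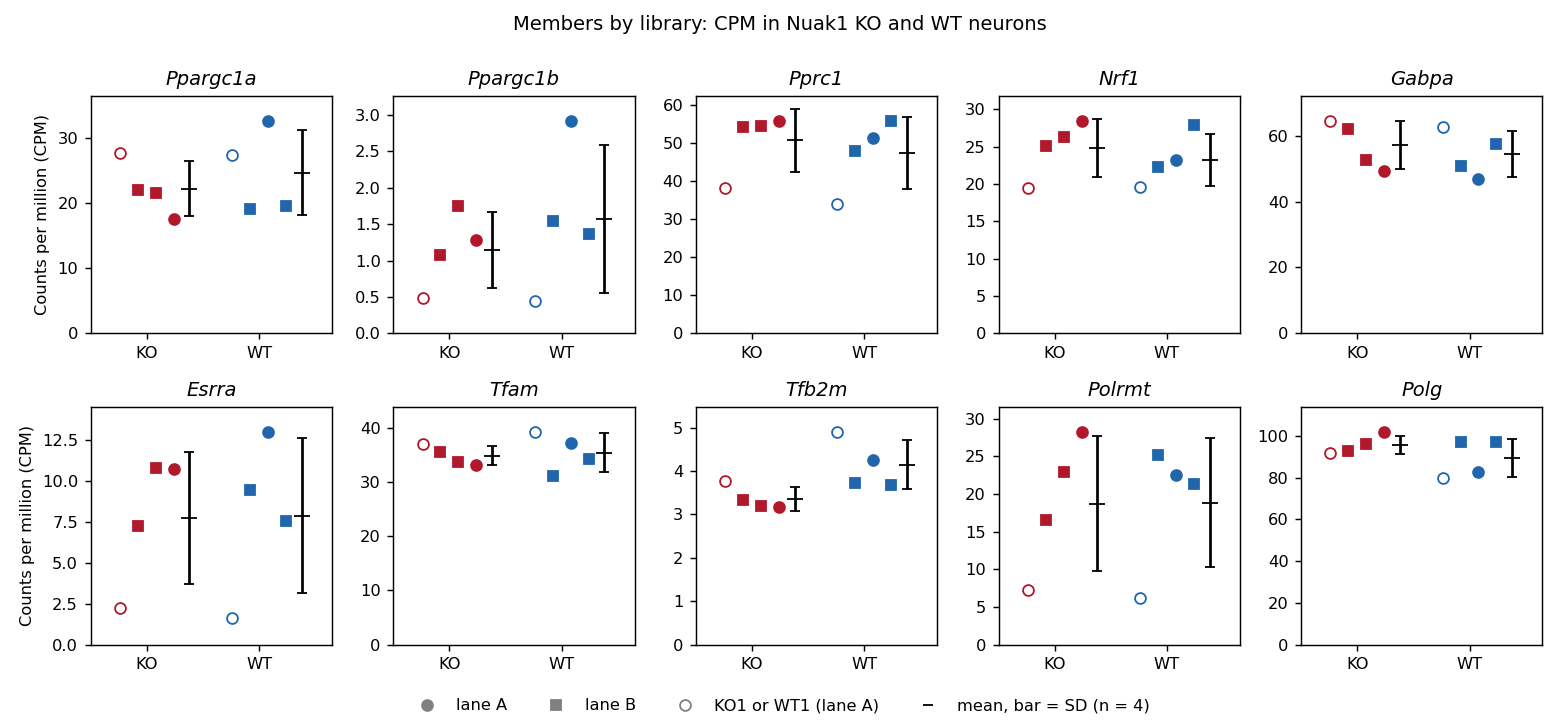
CPM of each member (y axis, linear from 0) in the 4 KO (red) and 4 WT (blue) libraries, with circles for lane A, squares for lane B, open symbols for KO1 and WT1, and the mean with its SD beside each group. The genotypes overlapped for every member, and KO1 and WT1 lay together at the bottom for Ppargc1b, Pprc1, Nrf1, Esrra and Polrmt.

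Of the transcription factors, Nrf1 encodes nuclear respiratory factor 1, which binds sites in many genes for respiratory subunits and mtDNA upkeep (chr6:30047985-30153458). It was at 19.4, 25.1, 26.3 and 28.4 CPM in KO1 to KO4 and at 19.6, 22.2, 23.2 and 27.9 CPM in WT1 to WT4. KO1 and WT1 were nearly equal and the lowest, and KO4 and WT4 the highest of their genotypes. Nrf1 had a log2 fold change of 0.063 (SE 0.092, 95% interval -0.14 to 0.27, edgeR adjusted p = 0.837), and it ran from 0.0058 without WT3 to 0.14 without WT4 when 1 library was left out.

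Gabpa encodes the DNA-binding subunit of GABP, also called NRF-2 (chr16:84834891-84863783, where it overlaps Atp5j). It was at 64.5, 61.9, 52.7 and 49.2 CPM in KO1 to KO4 and at 62.6, 50.9, 46.8 and 57.5 CPM in WT1 to WT4. For this gene KO1 and WT1 were the highest libraries, the opposite of their place for Nrf1. For Gabpa the log2 fold change was 0.022 (SE 0.067, 95% interval -0.13 to 0.17, edgeR adjusted p = 0.929), with a sign that changed when KO2, WT1 or WT3 was left out (-0.020, -0.0075 and -0.017). Its partner subunits Gabpb1 and Gabpb2 belong to the first related list below.

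Esrra encodes ERRalpha, the orphan nuclear receptor through which PGC-1alpha reaches many oxidative genes (chr19:6910977-6922048, where it overlaps Trmt112 and Mir6990). It was at 2.21, 7.20, 10.7 and 10.7 CPM in KO1 to KO4 and at 1.60, 9.41, 12.9 and 7.50 CPM in WT1 to WT4. KO1 and WT1 were several times below every other library, and the highest library, WT3, was 8.09 times the lowest, WT1. Among the remaining 6 libraries that ratio was 1.80. Esrra had a log2 fold change of 0.094 (SE 0.11, 95% interval -0.15 to 0.33, edgeR adjusted p = 0.787) with the surrogate variable, -0.064 (SE 0.60) without it, and -0.091 (SE 0.24) without KO1 and WT1. With 1 library left out it ran from 0.038 without KO1 to 0.15 without WT2.

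Among the factors that act on mtDNA itself, Tfam is the main packaging protein of the mitochondrial nucleoid and an activator of its promoters (chr10:71225468-71238328, 13.1 Mb from Nuak1 on the same chromosome). It was at 37.1, 35.6, 33.8 and 33.2 CPM in KO1 to KO4 and at 39.2, 31.1, 37.3 and 34.3 CPM in WT1 to WT4. No library stood apart, and the highest was 1.26 times the lowest, the smallest such ratio of the 10 members. For Tfam the log2 fold change was -0.062 (SE 0.068, 95% interval -0.21 to 0.091, edgeR adjusted p = 0.778), with -0.015 without WT3 and -0.098 without WT2 as the extremes when 1 library was left out.

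Tfb2m, the mitochondrial transcription factor that helps open the promoter for POLRMT, was the member with the lowest p (chr1:179528052-179546305). It was at 3.76, 3.32, 3.20 and 3.16 CPM in KO1 to KO4 and at 4.90, 3.74, 4.26 and 3.69 CPM in WT1 to WT4. KO2, KO3 and KO4 were below every WT library, and KO1 was slightly above WT2 and WT4, so the genotypes overlapped. Its mean level was 3.36 ± 0.28 CPM (SD, n = 4) over the KO libraries and 4.14 ± 0.56 CPM (SD, n = 4) over the WT libraries. In the fit the log2 fold change of Tfb2m was -0.34 (SE 0.13, 95% interval -0.62 to -0.063), with an edgeR p of 0.0213 before and 0.405 after adjustment over all genes. The value was below 0 in all 21 alternative fits, from -0.43 to -0.25, and on both lanes (-0.43 and -0.26), and the unadjusted p stayed under 0.05 in 11 of the 21. The adjusted p passed the threshold in none of them, with a lowest value of 0.276 when WT4 was left out. Without KO1 and WT1 the value was -0.30 (95% interval -0.67 to 0.059).

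Counts of Tfb2m are uncertain in one respect. In a blastn search of the mouse genome (NCBIM37), 98.3% of the 2449 bases of the longest Tfb2m transcript matched a second place, on chromosome 12, with a longest match of 2169 bases at 99.6% identity. The predicted gene annotated there, Gm1818, collected 0, 1, 1 and 2 reads in KO1 to KO4, and WT libraries had 0 throughout, while Tfb2m had 115 to 167 counts in KO and 140 to 251 in WT. Reads that match both places equally well are left out of the counts in both genotypes. Of the other members, at most 3.02% of the transcript (Ppargc1a) matched elsewhere, in short pieces.

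Polrmt encodes the RNA polymerase of mitochondria, which makes both transcripts and primers for replication (chr10:79736125-79746604, 4.62 Mb from Nuak1). It was at 7.27, 16.5, 22.8 and 28.2 CPM in KO1 to KO4 and at 6.18, 25.2, 22.5 and 21.3 CPM in WT1 to WT4. KO1 and WT1 were again the lowest, and the other 6 libraries overlapped between genotypes. The log2 fold change of Polrmt was 0.0073 (SE 0.14, 95% interval -0.31 to 0.33, edgeR adjusted p = 0.991). The lanes differed in sign, with 0.31 on A (SE 0.87) and -0.31 on B (SE 0.17). Leaving out KO1, KO4, WT1 or WT3 also turned the sign. Without KO1 and WT1 together it was -0.064 (SE 0.19), and without the surrogate variable -0.043 (SE 0.48).

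Polg, the catalytic subunit of the mtDNA polymerase, had the highest CPM of the members (chr7:79446231-79467911, where it overlaps Fanci and a transfer RNA gene). It was at 92.1, 92.8, 96.4 and 102 CPM in KO1 to KO4 and at 79.9, 97.3, 83.0 and 97.1 CPM in WT1 to WT4. WT2 and WT4 lay within the range of the KO libraries, and WT1 and WT3 below it. The log2 fold change of Polg was 0.067 (SE 0.079, 95% interval -0.11 to 0.24, edgeR adjusted p = 0.794), and the lanes gave 0.23 (A) and -0.11 (B). It ran from 0.0057 without WT3 to 0.12 without WT2 when 1 library was left out.

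Across the 10 members, 0 passed the adjusted threshold in edgeR, where 0.0492% of all tested genes did, and 0 passed in DESeq2, where 1.23% of 13432 genes did. At an unadjusted p under 0.05 the count was 1 of 10 (Tfb2m), beside 10.5% of all tested genes. No member had library ranges that did not overlap between genotypes, against 2.40% of all tested genes (0.860% with KO lower). By sign, 6 members were higher and 4 lower in KO, beside 53.4% higher among all genes, and the median log2 fold change was 0.015 for the members and 0.014 for all tested genes. With all 8 libraries and the surrogate variable, the 95% interval lay within 0.5 on the log2 scale on either side of 0 for 7 members, all but Ppargc1a, Ppargc1b and Tfb2m. That number depended on the fit. It was 5 without KO1 and WT1, where the intervals of Esrra (-0.63 to 0.45) and Polrmt (-0.51 to 0.38) were wider, and 5 without the surrogate variable, where they ran from -1.41 to 1.29 and from -1.11 to 1.03. It was 2 with strain label as a term and 0 on lane A alone. For Pprc1, Nrf1, Gabpa, Tfam and Polg the interval lay within that limit in each of these fits with 5, and likewise with lane as a term.

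**Figure D3:**
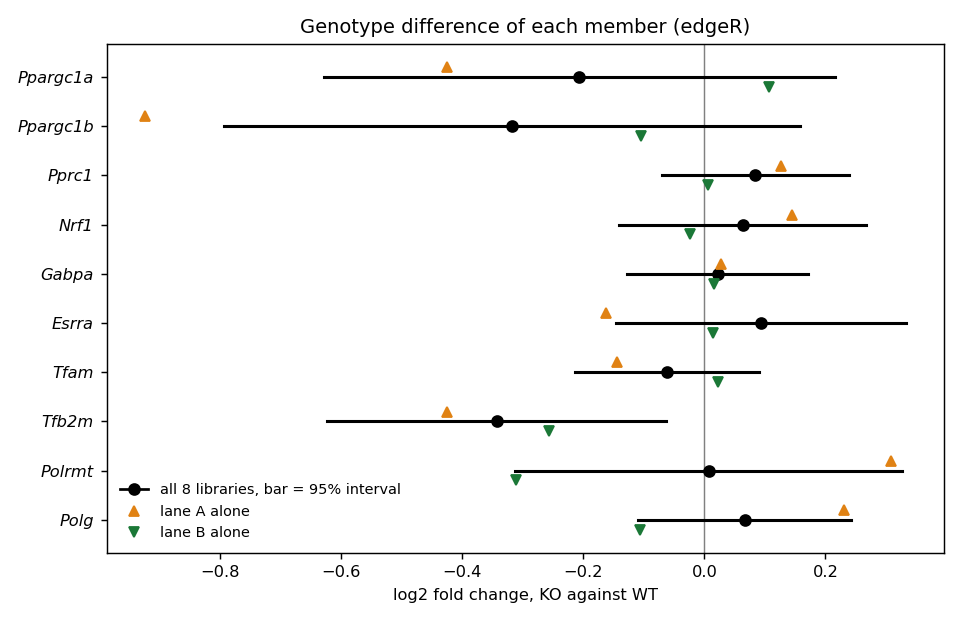
Log2 fold change of each member, KO against WT, from edgeR on all 8 libraries (black points, bars are 95% intervals) and on the 4 libraries of lane A or lane B alone (triangles, without intervals). The interval of Tfb2m (-0.62 to -0.063) was the single one that did not include 0, before adjustment for the number of genes, and the lanes gave opposite signs for Ppargc1a, Nrf1, Esrra, Tfam, Polrmt and Polg.

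The largest differences between libraries were not between genotypes. Both KO1 and WT1 lay below all other libraries for 5 members (Ppargc1b, Pprc1, Nrf1, Esrra and Polrmt), where 28.8% of all tested genes did, and above all others for Gabpa, where 20.5% did. Relative to the mean of the other 6 libraries on the log2 scale, the pair was at -2.30 for Esrra, -1.72 for Polrmt and -1.63 for Ppargc1b, and at 0.37 for Ppargc1a, the largest positive difference. Esrra was at percentile 0.36 of all tested genes in this measure. Without the pair, the ratio of the highest to the lowest library went from 6.51 to 2.73 for Ppargc1b and from 4.56 to 1.71 for Polrmt. The log2 fold change between genotypes without the pair was 0.053 (SE 0.079) for Pprc1, 0.092 (SE 0.11) for Nrf1 and 0.043 (SE 0.11) for Gabpa.

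The GC content of the longest transcript moved with this difference. The 3 members that were lowest in KO1 and WT1 had transcripts of 61.8% (Esrra), 60.9% (Polrmt) and 57.8% GC (Ppargc1b), and the 4 members that were higher there had 41.4% (Gabpa), 41.7% (Ppargc1a), 42.5% (Tfb2m) and 44.9% GC (Tfam). Over all tested genes with a GC value, the median log2 difference of the pair was 0.36 in the GC bin with the lowest content (5 bins of 2727 or 2728 genes) and -0.93 in the highest bin. Polg, at 56.2% GC, was at -0.12 and so above the median of its bin. After a correction that levelled GC content within each library, the differences of Esrra (-1.11), Ppargc1b (-0.77) and Polrmt (-0.59) were smaller but still below 0, and that of Polg became 0.55. The part of RNA quality or library preparation in this difference was not tested.

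**Figure D4:**
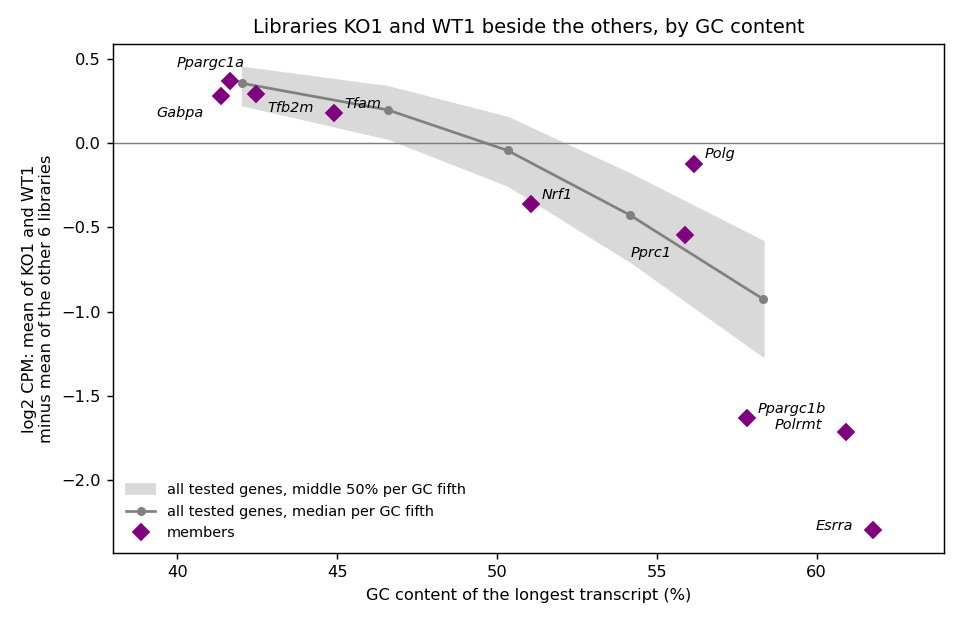
Mean log2 CPM of KO1 and WT1 minus the mean of the other 6 libraries (y axis) against GC content of the longest transcript in percent (x axis), for the 10 members (diamonds) and as the median and middle 50% of tested genes in each of 5 GC bins (line and band). The 4 members with the least GC sat between 0.18 and 0.37 and the 3 with the most between -2.30 and -1.63. Ppargc1b lay below the band. Esrra and Polrmt lay to the right of its end, at values below its lowest edge (-1.26).

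Genes that work with the members were read from 7 lists that together held 145 genes. Of these 137 had a row in the count table and 132 were tested. None passed the adjusted threshold in edgeR or DESeq2. At an unadjusted p under 0.05 in edgeR there were 15 genes (11.4%), 13 of them higher and 2 lower in KO, beside 4.71% higher and 5.78% lower among all tested genes. The median log2 fold change of the 132 tested genes was 0.024. For each list below, the shares among all tested genes were 53.4% higher in KO and 10.5% at an unadjusted p under 0.05.

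Among the partners and upstream regulators of the PGC-1 family, 17 of 34 tested genes were higher in KO, the median log2 fold change was 0.00012, and 6 had an unadjusted p under 0.05. Kat2a (also GCN5), the acetyltransferase that dampens PGC-1alpha, was at 42.8 to 80.1 CPM in KO against 37.1 to 73.3 CPM in WT, with a log2 fold change of 0.16 (SE 0.055, edgeR adjusted p = 0.377). Nrip1 (RIP140), a corepressor that opposes PGC-1alpha, was at 87.8 to 123 CPM in KO against 106 to 136 CPM in WT. Its log2 fold change was -0.33 (SE 0.11, edgeR adjusted p = 0.377), and both lanes gave a lower value in KO (-0.25 and -0.42). The library ranges of both genes overlapped between genotypes.

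Of the genes for mtDNA transcription and RNA processing, 16 of 27 were higher in KO with a median log2 fold change of 0.021, and 1 had an unadjusted p under 0.05. That gene was Hsd17b10, a subunit of the mitochondrial RNase P, at 27.7 to 38.6 CPM in KO against 22.6 to 33.9 CPM in WT (log2 fold change 0.16, SE 0.067, edgeR adjusted p = 0.464), with 0.25 on lane A and 0.039 on lane B. Fastkd2, an RNA-binding protein of mitochondrial granules, was at 21.0 to 31.7 CPM in KO against 19.2 to 33.6 CPM in WT (log2 fold change -0.19, SE 0.090, edgeR adjusted p = 0.495), with -0.033 on lane A and -0.36 on lane B.

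In the list for mtDNA replication, repair and nucleotide supply, 19 of 25 tested genes were higher in KO, the median log2 fold change was 0.058, and 3 had an unadjusted p under 0.05, all higher. Tk2, the mitochondrial thymidine kinase that salvages nucleosides in cells that do not divide, was at 32.2, 42.8, 42.1 and 43.7 CPM in KO1 to KO4 and at 24.5, 34.2, 41.1 and 38.2 CPM in WT1 to WT4. KO2, KO3 and KO4 were above every WT library and KO1 was not. Its log2 fold change was 0.22 (SE 0.062, edgeR adjusted p = 0.345), 0.20 on lane A, 0.17 on lane B and 0.15 (SE 0.087) without KO1 and WT1.

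Rrm1, the large subunit of ribonucleotide reductase, was at 74.0, 54.1, 54.7 and 57.2 CPM in KO1 to KO4 and at 57.8, 47.0, 39.2 and 54.1 CPM in WT1 to WT4, with a log2 fold change of 0.23 (SE 0.084, edgeR adjusted p = 0.405). KO1 was the highest library and WT3 the lowest, and the lanes gave log2 fold changes of 0.41 (A) and 0.044 (B). Ribonucleotide reductase also serves dividing cells, and the summed CPM of 7 mitosis markers was 165 to 279 in KO and 67.4 to 202 in WT, again highest in KO1 and lowest in WT3. All 7 markers were higher in KO (median log2 fold change 0.48), 4 of them with an unadjusted p under 0.05 (beside 53.4% higher, and 4.71% higher at that p, among all tested genes) and 0 past the adjusted threshold in edgeR or DESeq2. Their part in the value of Rrm1 was not tested.

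Of 15 genes for the nucleoid and mitochondrial proteostasis, 9 were higher in KO (60.0%, median log2 fold change 0.080). An unadjusted p under 0.05 was found for 4 (26.7%), beside 53.4% higher and 10.5% at that p among all tested genes. Pink1, the kinase that marks damaged mitochondria, was at 49.8, 96.0, 110 and 106 CPM in KO1 to KO4 and at 36.5, 87.8, 108 and 88.5 CPM in WT1 to WT4 (log2 fold change 0.21, SE 0.061, edgeR adjusted p = 0.345). Yme1l1, an inner-membrane protease, was at 131 to 189 CPM in KO against 144 to 196 CPM in WT (log2 fold change -0.15, SE 0.057, edgeR adjusted p = 0.414). In Pink1, KO1 and WT1 were the lowest libraries, and in Yme1l1 they were the highest. Without this pair the log2 fold change was 0.10 (SE 0.11) for Pink1 and -0.15 (SE 0.075) for Yme1l1.

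Targets of the members were read in a pair of lists. Of 12 canonical targets of NRF1 and GABP, 5 were higher in KO (median log2 fold change -0.014), and Tomm34, a cochaperone of protein import, had the lowest p at 28.9 to 39.6 CPM in KO against 22.4 to 33.5 CPM in WT (log2 fold change 0.24, SE 0.077, edgeR adjusted p = 0.367). Sdhb, a subunit of respiratory complex II, was at 36.7 to 65.7 CPM in KO against 34.5 to 78.9 CPM in WT (log2 fold change -0.085, SE 0.058, edgeR adjusted p = 0.629, and -0.16 without KO1 and WT1). Of 13 tested targets of PGC-1alpha and ERRalpha, 9 were higher (median log2 fold change 0.037) and 0 had an unadjusted p under 0.05 in edgeR.

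Cs encodes citrate synthase, an enzyme whose activity is often used as a gauge of mitochondrial content. The paper reported lower activity of this enzyme in KO embryonic cortices, while only the transcript is read here. Cs was at 332, 335, 324 and 342 CPM in KO1 to KO4 and at 280, 299, 327 and 302 CPM in WT1 to WT4. KO1, KO2 and KO4 were above every WT library and KO3 was just below WT3. Its log2 fold change was 0.11 (SE 0.060, edgeR adjusted p = 0.547), with 0.13 on lane A and 0.067 on lane B. Ucp2, an inner-membrane carrier, was at 0.37, 1.62, 2.42 and 0.52 CPM in KO1 to KO4 and at 0.064, 0.24, 0.76 and 1.08 CPM in WT1 to WT4 (log2 fold change 1.38, SE 0.63, edgeR adjusted p = 0.496). On lane A alone that value was 0.071 and on lane B 1.72. KO2 and KO3, the libraries highest in Ucp2, were also highest in the summed microglial markers (27.1 and 42.2 CPM), whose part in this value was not tested.

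Of the transcripts made by POLRMT from the mitochondrial genome, 7 protein genes were tested, 4 of them higher in KO, with a median log2 fold change of 0.018 and 0 at an unadjusted p under 0.05 in edgeR. mt-Nd6, a complex I subunit and the single protein gene on the light strand of mtDNA, was at 62.5, 38.4, 40.2 and 65.2 CPM in KO1 to KO4 and at 85.9, 51.4, 48.6 and 86.6 CPM in WT1 to WT4 (log2 fold change -0.42, SE 0.23, edgeR adjusted p = 0.555). The lanes gave -0.10 (A) and -0.87 (B). mt-Nd5, its neighbour on the opposite strand, was at 4086 to 8810 CPM in KO against 2852 to 7333 CPM in WT (log2 fold change 0.11, SE 0.15, edgeR adjusted p = 0.833, with 0.30 on lane A and -0.073 on lane B). Most mitochondrial mRNAs carry a short poly-A tail and mt-Nd6 is known to lack one, so capture by poly-A bears on its level. The ends of mt-Nd5 and mt-Nd6 overlap on opposite strands, and reads there cannot be told apart if reads were not counted by strand.

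**Figure D5:**
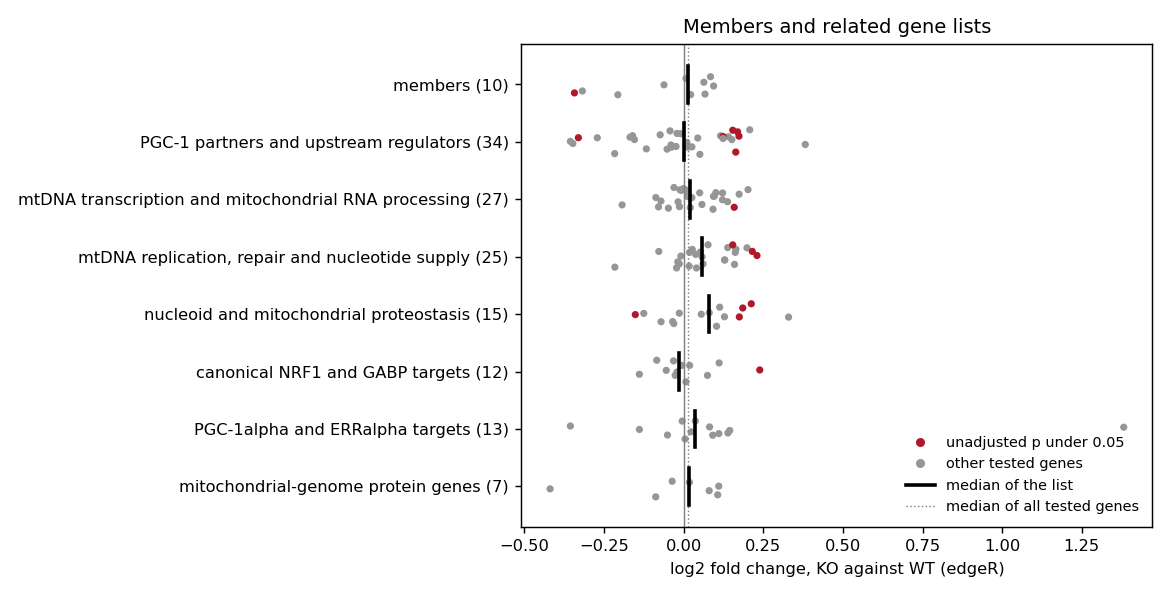
Log2 fold change, KO against WT (x axis, edgeR), of the members and of each tested gene in 7 related lists (number tested in brackets), with red points for an unadjusted p under 0.05, black bars for list medians and a dotted line for the median of all tested genes. List medians lay between -0.014 and 0.080, and the point farthest to the right is Ucp2 at 1.38.

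Over the 8 libraries, the genes whose centred log2 CPM was closest to that of Ppargc1a were Egfl6 (root mean square distance 0.056 on the log2 scale), Ankrd34b (0.058), Slc9b2 (0.078), Dgkh (0.080) and Rbms1 (0.082). All 5 were highest in WT3, as Ppargc1a was. Rbms1 was at 28.6, 21.8, 21.0 and 16.1 CPM in KO1 to KO4 and at 25.3, 16.2, 31.1 and 17.5 CPM in WT1 to WT4, and Dgkh ranged from 144 to 241 CPM. Egfl6 and Slc9b2 had mean levels of 0.76 and 0.52 CPM. The 8 libraries share depth and GC differences, and such likeness is a description of these libraries.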

How the data were processed

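Poly-A RNA of cultured neurons was measured in 8 libraries, 4 KO and 4 WT, grouped by the labels. The authors deposited raw counts, 1 row for each Ensembl gene. Per the labels and the study's methods, reads were trimmed with cutadapt 1.10, aligned to mm10 with STAR 2.5.3a and counted with HTSeq 0.6.1p1 (union mode, unique alignments). Reads with several alignments, or overlapping several genes, were not counted, which lowers the counts of genes with close copies or neighbours. Read length and layout differ between labels and methods. The methods name a stranded library kit, but whether the counting used the strand is not stated. The table held counts alone, no authors' comparisons, and every column matched a sample.

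Genes kept by filterByExpr were tested with the quasi-likelihood F test of edgeR 4.0.16 (TMM, 1 surrogate variable from sva 3.50.0, Benjamini-Hochberg over 16272 genes). Intervals (95%) use the residual degrees of freedom. DESeq2 1.42.0, other covariates, lane A and lane B alone, no filter and each replicate left out were alternatives. Fits without KO1 and WT1 and with GC correction (a lowess per library) were chosen after seeing the data. Identifiers were matched to symbols (23260 of 32726) and positions through RefSeq (GRCm38.p6, the same build as mm10). Exon lengths and transcript GC came from GENCODE on NCBIM37, as did the blastn 2.17.0 search, and a GC value was found for 83.8% of tested genes and all 10 members. The edgeR fit was tested on simulated counts. Their spread was capped at the median of the genes, and they held no library effect like that of KO1 and WT1. The closest pair of libraries (KO1 and WT1) differed with a chi-square of 20.6 per degree of freedom, so no library was counted as a duplicate.

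The members, the related lists and the markers were chosen with earlier results of these data known. Named from each related list were up to 5 genes past the adjusted threshold or, where none passed, the 2 with the lowest p. Named as most like Ppargc1a were the 5 tested genes with the smallest root mean square distance of centred log2(CPM + 0.5). List genes matched to no row by symbol or Ensembl identifier (Prmt1, Mpv17, Tomm20, mt-Nd3, mt-Nd4l, mt-Co3, mt-Atp6 and mt-Atp8) were not analysed here, and Pparg, Tymp, Ucp3 and Pvalb were too low to be tested. mt-Co2 was listed at 0 in every library, while mt-Co1 had a mean of 8815 CPM, so that 0 was not read as a level. The promoter of Ppargc1b was not used here.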

Additional observations from a re-analysis of the deposited data

Results flagged for a closer look

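Of 22 groups of 4 libraries checked for a library far from the rest, 1 had one, where chance gives about 1.1. Pprc1 was at 38.3 CPM in KO1 and at 54.4 to 55.8 CPM in the other KO libraries, and the gap was 0.918 of the whole range, past Dixon's limit. WT1 was the lowest WT library for Pprc1 too, at 34.0 CPM. Without both libraries, the log2 fold change of Pprc1 was 0.053 (SE 0.079, edgeR adjusted p = 0.981) in place of 0.084.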

How the results depend on the processing

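No member passed the adjusted threshold in any of 210 refits (10 members, 21 alternatives, smallest adjusted p 0.276), and 28 of them changed sign. The number of all genes past it was 8 in the main setting. It was 4 with no surrogate variable, 17 with 2 surrogate variables, 4 with lane as a term, 1 with strain label as a term, 49 without the filter, 165 by DESeq2, 0 on lane A alone, 99 on lane B alone, 3 without KO1 and WT1, 4 with GC correction and no surrogate variable, and 3 to 114 when 1 library was left out (114 without WT3). The number of members with an interval within 0.5 of 0 (7) was 0 to 8 over the alternatives. Related genes past the adjusted threshold were 0, except 1 (Cplx1) without WT3, for a range of 0 to 1. Its log2 fold change was then 0.38 (edgeR adjusted p = 0.0345) against 0.14 (0.795) with all libraries.

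Signs turned in these values. Ppargc1a was 0.11 on lane B and -0.30 to 0.026 with 1 library left out. Nrf1 was -0.024 on lane B. Gabpa was -0.011 with 2 surrogate variables, -0.15 with strain label as a term and -0.020 to 0.050 with 1 library left out. Esrra was -0.064 with no surrogate variable, -0.075 with lane as a term, -0.16 on lane A and -0.091 without KO1 and WT1. Tfam was 0.0086 with strain label as a term and 0.022 on lane B. Polrmt was -0.043 with no surrogate variable, -0.069 with 2, -0.0014 with lane as a term, -0.0065 without the filter, -0.31 on lane B, -0.064 without KO1 and WT1, -0.012 with GC correction and no surrogate variable, and -0.098 to 0.12 with 1 library left out. Polg was -0.11 on lane B and -0.016 with GC correction. The share of Ppargc1a differed by 1.42 points on lane B, by 0.80 points against Ppargc1b alone, and by -7.21 to 0.078 points with 1 library left out. The cause of these changes was not tested.

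The labels do not say that a replicate number marks a shared animal, litter or day. Deviations of same-numbered samples correlated at 0.80, 0.012, 0.25 and 0.0023. The low values for numbers 2 and 4 cannot show whether those samples shared an animal, litter or day. KO1 and WT1 (both on lane A) deviated together. A replicate block gave 3 genes, 0 members, -0.030 for Polrmt and -3.43 points for the share of Ppargc1a (exact p = 0.25), and it changed no other sign of a member. Depth limits Ppargc1b most, with 14 counts in WT1, and the 4 libraries per genotype limit every interval.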

Other observations

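Summed CPM of marker lists not given above ranged as follows in KO and WT. Cortical glutamatergic markers summed to 821 to 1010 and 812 to 1001, hippocampal markers to 213 to 290 and 210 to 260, oligodendrocyte precursor markers to 459 to 552 and 446 to 535, and progenitor markers to 229 to 259 and 205 to 259. Endothelial and fibroblast markers summed to 12.1 to 21.2 and 6.59 to 35.0 CPM, and their markers Cldn5 and Col1a2 were at 0 in at least 1 library. Markers of both tissues that the label names, cortex and hippocampus, were detected in all 8 libraries.

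With GC content levelled within each library, the log2 difference of KO1 and WT1 from the other 6 was 0.025 for Ppargc1a, 0.094 for Pprc1, -0.25 for Nrf1, -0.067 for Gabpa, -0.068 for Tfam and -0.029 for Tfb2m.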
